A study of Mus musculus with 27 samples.

Results

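Lysosomal enzymes and membrane proteins were followed as a group of 39 genes, chosen by name, among the 55487 gene identifiers of RNA sequencing from primary mouse cells. The 39 genes fell into 10 proteases, 10 genes of lipid and sphingolipid breakdown, 8 of glycan breakdown, 8 membrane proteins, the gene of progranulin and 2 genes of transcription factors. The cells were microglia shaken off mixed glial cultures, macrophages grown from bone marrow (BMDM) and plated hepatocytes, each treated for 24 h with 10 µM 24(S)-saringosterol, a phytosterol, with 1 µM of a synthetic compound called GW here, or with the ethanol vehicle, and each of the 9 groups had 3 libraries. The labels spell the synthetic compound GW3596, GW3964 and GW3965, of which GW3965 is known as an agonist of the liver X receptors. No strain, sex or age was found in the labels, nor whether a group's libraries were independent cultures, so p-values measure only the spread between these libraries. All cells were treated without serum, microglia and BMDM in a medium with M-CSF and insulin and hepatocytes in Williams' E medium, so that medium and cell type cannot be told apart where hepatocytes are compared.

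Lysosomes are acidic compartments in which hydrolases break down proteins, lipids and glycans that arrive by endocytosis, phagocytosis and autophagy. The hydrolases are made in the endoplasmic reticulum and sorted to lysosomes, many of them by mannose 6-phosphate tags, while membrane proteins such as LAMP1 line the compartment and carry channels and transporters. The transcription factors TFEB and TFE3 are known to bind E-box motifs near the start of many of these genes, and macrophages and microglia, as phagocytes, are known for high levels of them.

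The 27 libraries held 30295862 to 41040268 counts each. Replicates differed by more than sampling noise in every group, and BMDM saringosterol replicate 3 stood apart from its replicates: 17 interferon-stimulated genes summed to 221, 253 and 1238 CPM (reads per 1000000 counted) in saringosterol replicates 1 to 3 and to 756, 502 and 665 CPM in the vehicle BMDM. Of 15 macrophage markers, 14 without Cd14 summed to 8.13 to 11.4 CPM in vehicle hepatocytes, 37456 to 39524 CPM in vehicle microglia and 29135 to 30759 CPM in vehicle BMDM. Cd14 was set aside after its values were seen, since it alone had 621 CPM in vehicle hepatocytes. Lyz2 made most of the macrophage sums of both phagocytes, with means of 30108 CPM in vehicle microglia and 21411 CPM in vehicle BMDM. The 12 hepatocyte markers summed to 12786 to 13177 CPM in vehicle hepatocytes, and in vehicle microglia to 111 to 132 CPM, nearly all from Ass1 with 122 CPM and with 5 of the 12 at 0. The 9 microglia markers summed to 899 to 925 CPM in vehicle microglia and 306 to 315 CPM in vehicle BMDM. In bulk samples fewer cells of a type and less RNA per cell cannot be told apart.

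Levels without treatment are given as TPM (transcripts per 1000000, the authors’ length-corrected values). The 39 genes took 1.3% ± 0.02 of all TPM in vehicle hepatocytes, 7.78% ± 0.18 in vehicle microglia and 8.37% ± 0.28 in vehicle BMDM (SD, n = 3 each). In hepatocytes the highest levels were those of Ctsz, a carboxypeptidase, with 1552 ± 83.9 TPM, Lamp1, with 1538 ± 9.48 TPM, and Ctsl, a cysteine endopeptidase, with 1296 ± 10.5 TPM (SD, n = 3). The spreads of Ctsz and Lamp1 overlapped. In microglia Psap, the precursor of the saposins that present sphingolipids to their hydrolases, stood at 15880 ± 1022 TPM, the aspartic protease gene Ctsd at 14031 ± 162 TPM and the cysteine protease gene Ctsb at 11631 ± 282 TPM. In BMDM the order was Psap with 20713 ± 1128 TPM, Ctss with 12984 ± 395 TPM and Ctsd with 12568 ± 656 TPM, the last pair within their spread of each other.

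At the low end of hepatocyte levels lay Galc with 1.52 ± 0.0463 TPM, Laptm5 with 0.387 ± 0.152 TPM and Ctsk with 0.0483 ± 0.0498 TPM (SD, n = 3). The lowest in microglia were Galc with 16.3 ± 0.296 TPM, Sgsh, a sulfatase of heparan sulfate, with 13.4 ± 1.09 TPM and Ctsk with 11.8 ± 0.372 TPM. In BMDM they were the calcium channel gene Mcoln1 with 22.9 ± 1.09 TPM, Arsb with 12.5 ± 2.12 TPM and Sgsh with 9.24 ± 0.6 TPM. The 39 levels ran over more than 3 orders of magnitude in each cell type. Tfeb had 5.9 ± 0.323 TPM in hepatocytes, 35.7 ± 0.972 TPM in microglia and 61.8 ± 3.57 TPM in BMDM, and Tfe3 had 40.2 ± 2.32, 65.8 ± 1.53 and 57.2 ± 2.76 TPM in the same order of cells.

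**Figure D1:**
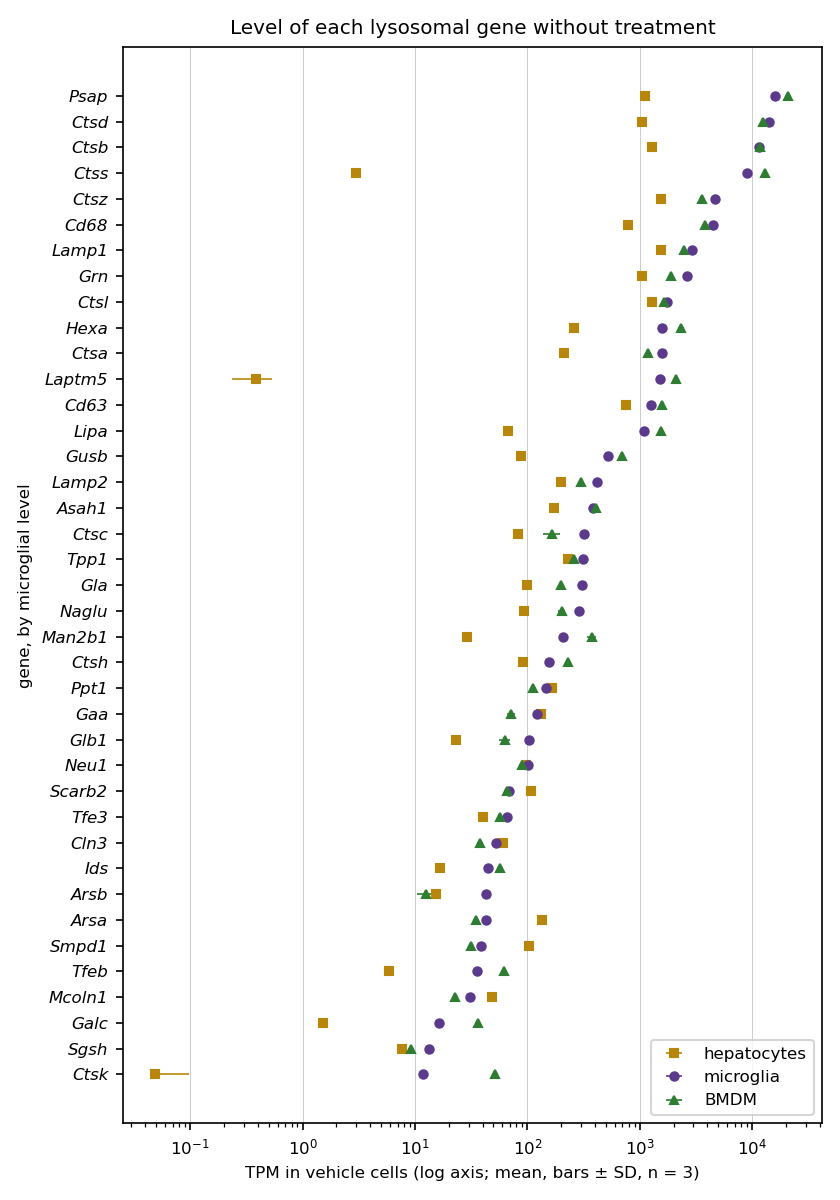
Level of each of the 39 genes in vehicle cells, as mean TPM with SD (n = 3) on a log axis, with genes in the order of their microglial level; a lower bar is left out where the SD exceeds the mean (Ctsk in hepatocytes). The hepatocyte squares lie left of the other symbols for most genes, farthest for Laptm5, Ctss and Ctsk, and right of them for Arsa, Smpd1, Scarb2 and Mcoln1, and by less for Gaa, Ppt1 and Cln3.

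Vehicle hepatocytes differed from vehicle microglia in 38 of the 39 genes: 4 were higher and 34 lower (adjusted p under 0.05, edgeR's quasi-likelihood test with Benjamini-Hochberg adjustment over all genes). Of all genes tested, 37.7% were higher and 38.6% lower in that comparison, and the median log2 fold change was -1.81 over the 39 genes and -0.03 over all. The 4 higher genes were Arsa, the arylsulfatase that degrades sulfatide, Smpd1, the acid sphingomyelinase, Scarb2, the membrane receptor that carries glucocerebrosidase to lysosomes, and Mcoln1. Arsa had 154, 143 and 146 CPM in hepatocytes and 58.5, 56.9 and 58.8 CPM in microglia, a log2 fold change of 1.34 ± 0.06 (SE). Smpd1 had 106, 93.7 and 102 CPM in hepatocytes and 47.4, 46.7 and 49.1 CPM in microglia, with a log2 fold change of 1.07 ± 0.06. Every hepatocyte library stood above every microglial one for these genes. Scarb2 had 203, 198 and 201 CPM in hepatocytes and 160, 155 and 160 CPM in microglia, and Mcoln1 had 107, 103 and 111 CPM in hepatocytes and 83.8, 83.9 and 87.7 CPM in microglia, with log2 fold changes of 0.33 ± 0.05 and 0.32 ± 0.06.

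Among the lower genes, those with the largest differences were Laptm5, a lysosomal membrane protein of blood-derived cells, Ctss, the cysteine protease that trims the class II invariant chain, Ctsk, the collagen-degrading cathepsin, and Lipa, the acid lipase of cholesteryl esters and triglycerides. Laptm5 had 0.391, 0.611 and 0.289 CPM in vehicle hepatocytes and 2139, 2074 and 2125 CPM in vehicle microglia. Ctss had 1.11, 1.26 and 1.18 CPM in hepatocytes and 4420, 4459 and 4530 CPM in microglia. No hepatocyte library came near a microglial one for either gene. In the same hepatocytes the macrophage genes Csf1r and Adgre1 averaged 0.692 and 0.565 CPM. Ctsk gave 3 counts over the 3 hepatocyte libraries and 711 over the microglial ones, a ratio of 0.0043 with an exact 95% interval of 0.00088 to 0.013, which covers counting error only. Lipa had 135, 137 and 134 CPM in hepatocytes and 2767, 2690 and 2731 CPM in microglia, a log2 fold change of -4.34 ± 0.06. Cd68, often used as a macrophage marker, had 306, 272 and 287 CPM in hepatocytes and 2010, 2041 and 2095 CPM in microglia.

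The comparison of vehicle hepatocytes with vehicle BMDM had 7 of the 39 genes higher and 31 lower, against 38.9% higher and 39.2% lower of all genes tested. Its median log2 fold change was -1.54 over the 39 genes and -0.02 over all. The 4 genes named above were again higher, joined by Gaa, the acid alpha-glucosidase of glycogen, Cln3 and Ppt1. Gaa had 200, 174 and 188 CPM in hepatocytes and 120, 141 and 145 CPM in BMDM, with a log2 fold change of 0.46 ± 0.07. Galc, the galactosylceramidase of myelin lipids, had 6.98, 6.56 and 6.41 CPM in hepatocytes and 197, 217 and 223 CPM in BMDM, with a log2 fold change of -5.00 ± 0.07. Laptm5 and Ctss had the hepatocyte values given above against 3009, 3101 and 3297 CPM and 7037, 6671 and 7087 CPM in BMDM. Ctsk gave 3 counts in hepatocytes against 3054 in BMDM, a ratio of 0.00092 (0.00019 to 0.0027).

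These counts between cell types depended on scaling. Without scaling beyond library totals, the median of all genes moved to 0.36 for hepatocytes against microglia and 0.39 for hepatocytes against BMDM. The split of all genes called became 8587 higher and 5049 lower against microglia, beside 6577 and 6742 with TMM scaling (trimmed mean of M values), and 8664 higher and 5063 lower against BMDM, beside 6789 and 6849. For the 39 genes it became 7 higher and 31 lower against microglia and 8 higher and 30 lower against BMDM. Ppt1 and Gaa turned from lower to higher against microglia, with log2 fold changes of 0.24 and 0.18 in place of -0.15 and -0.21. Neu1, called lower in both comparisons with TMM scaling (-0.38 against microglia and -0.31 against BMDM), had 0.01 and 0.11 and was not called in either. Cln3 against microglia and Arsb against BMDM, not called with TMM scaling (-0.10 and -0.12), were both higher by 0.29.

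Vehicle microglia had 18 of the 39 genes higher and 14 lower than vehicle BMDM, with 25.8% higher and 23.4% lower over all genes tested and medians of 0.10 over the 39 genes and 0.00 over all. Arsb, the sulfatase of dermatan sulfate, had 95.6, 97.7 and 92.8 CPM in microglia and 24.6, 34.7 and 29.6 CPM in BMDM, a log2 fold change of 1.69 ± 0.09. Ctsc, the dipeptidyl peptidase that activates granule serine proteases, had 658, 683 and 699 CPM in microglia and 436, 308 and 398 CPM in BMDM, with a log2 fold change of 0.84 ± 0.09. Gaa and the beta-galactosidase gene Glb1 were higher by 0.67 ± 0.07 and 0.61 ± 0.07. All microglial libraries lay above all BMDM libraries for these 4 genes. Ctsk had 6.25, 6.69 and 6.73 CPM in microglia and 32.8, 29.6 and 30.3 CPM in BMDM, with a log2 fold change of -2.24 ± 0.12. Galc was lower by 1.26 ± 0.06 on that scale, the alpha-mannosidase gene Man2b1 by 0.95 ± 0.06, and Tfeb by 0.89 ± 0.06, with 75.7, 73.3 and 73.4 CPM in microglia and 127, 139 and 147 CPM in BMDM.

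GW raised most of the set in microglia. Against vehicle, 26 of the 39 genes were higher and 5 lower, while 13.4% of all genes tested were higher and 15.2% lower. The median log2 fold change was 0.22 over the 39 genes and -0.01 over all. Changes were moderate: the 26 higher genes rose 1.08 to 1.75-fold. In each of them all 3 GW libraries lay above all 3 vehicle libraries. Among the 39 genes, every call of a treatment or vehicle comparison went with groups that did not overlap. A lack of overlap is therefore no support beyond the call, and its share over all genes was not counted. Together the 39 genes took 8.6, 8.55 and 8.6% of TPM in GW-treated microglia and 7.63, 7.73 and 7.99% in vehicle microglia. These are shares of the library and not amounts per cell, and the genes with the highest levels weigh most in them.

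The lipid-degrading enzymes had 8 of 10 genes higher and 1 lower with GW in microglia. Galc (chr12:98202294-98259459, minus strand of GRCm38) had 161, 155 and 153 CPM in GW-treated microglia and 86.1, 88.6 and 91.1 CPM in vehicle microglia, with a log2 fold change of 0.81 ± 0.04 (SE) and an adjusted p of 2.6e-15. Glb1 (chr9:114401076-114474898, plus strand) had 174, 166 and 173 CPM with GW and 111, 112 and 119 CPM with vehicle, with a log2 fold change of 0.58 ± 0.05. The groups did not overlap for either gene, nor for Hexa, which cleaves GM2 ganglioside, Asah1, the acid ceramidase, and Ppt1, a palmitoyl thioesterase, which rose 1.36, 1.36 and 1.27-fold. Lipa was 1.09-fold and Psap 1.14-fold higher. Gla, the alpha-galactosidase of globotriaosylceramide, fell to 340, 345 and 336 CPM with GW, against 353, 368 and 376 CPM with vehicle, and Smpd1, with a log2 fold change of 0.04, was not called.

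Of the glycan-degrading enzymes 6 of 8 were higher with GW in microglia. Man2b1 (chr8:85083270-85098282, plus strand) had 934, 931 and 925 CPM in GW-treated microglia and 620, 592 and 622 CPM in vehicle microglia, a log2 fold change of 0.60 ± 0.04 with an adjusted p of 3.6e-14. Sgsh and Naglu, which act on heparan sulfate, rose 1.37 and 1.26-fold, Arsb 1.29-fold, the beta-glucuronidase gene Gusb 1.25-fold and the sialidase gene Neu1 1.16-fold. The other two, Gaa and the iduronate sulfatase gene Ids, had log2 fold changes of 0.08 and 0.07 and were not called. Among the membrane proteins 5 of 8 were higher. Mcoln1, which encodes the calcium-releasing channel TRPML1 (chr8:3500457-3515232, plus strand), had 123, 125 and 128 CPM with GW and 83.8, 83.9 and 87.7 CPM with vehicle, a log2 fold change of 0.55 ± 0.05 and an adjusted p of 1e-10. Scarb2, Cd68, Laptm5 and Lamp1 rose 1.38, 1.25, 1.23 and 1.19-fold, and Grn, the gene of progranulin, rose 1.1-fold.

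The proteases went both ways in GW-treated microglia, with 6 of 10 higher and 3 lower. Ctsd rose 1.37-fold, Tpp1, a tripeptidyl peptidase, 1.31-fold and Ctsb 1.29-fold, while Ctsa, Ctsh and Ctsc rose by 1.08 to 1.11-fold. Ctsl (chr13:64359337-64370890, minus strand) had 3007, 2937 and 3065 CPM in GW-treated microglia and 4148, 4096 and 4236 CPM in vehicle microglia, a log2 fold change of -0.48 ± 0.03 with an adjusted p of 8.7e-14. Ctsk had 1.88, 2.99 and 2.08 CPM with GW and 6.25, 6.69 and 6.73 CPM with vehicle, with a log2 fold change of -1.51 ± 0.17 and an adjusted p of 2.1e-08. Ctss had 3682, 3637 and 3559 CPM with GW and 4420, 4459 and 4530 CPM with vehicle. The groups did not overlap for these 3 genes. Ctsk (chr3:95499256-95509362) and Ctss (chr3:95526786-95556403, both on the plus strand) are neighbours with 17423 bases between them.

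Neither transcription factor gene rose with GW in microglia. Tfeb had 78.3, 66 and 74.7 CPM in GW-treated microglia and 75.7, 73.3 and 73.4 CPM in vehicle microglia, overlapping groups with a log2 fold change of -0.03 ± 0.06 and an adjusted p of 0.74. Tfe3 fell to 201, 192 and 198 CPM with GW, against 227, 219 and 224 CPM with vehicle, a log2 fold change of -0.19 ± 0.04 with an adjusted p of 0.00032. These are transcript levels and say nothing of where the proteins were in the cell. Beside these results, all 17 interferon-stimulated genes were lower, with sums of 844 to 1090 CPM in GW-treated and 2485 to 2753 CPM in vehicle microglia. Of 15 macrophage markers 6 were higher and 8 lower, with sums of 41761 to 42669 CPM with GW and 38302 to 40402 CPM with vehicle, and the hepatocyte marker Ass1 carried a sum of 19.1 to 20.2 CPM with GW and 111 to 132 CPM with vehicle. Of 8 microglia markers tested 4 were higher and 2 lower, with sums over all 9 of 1106 to 1130 CPM with GW and 899 to 925 CPM with vehicle. Oligodendrocyte lineage markers had 3 of 6 tested higher, with sums over all 7 of 88.3 to 90.4 CPM with GW and 78.3 to 83.1 CPM with vehicle. Kupffer cell markers had 2 of 4 tested higher and 1 lower, with sums over all 6 of 31.2 to 36.5 CPM with GW and 9.19 to 10.2 CPM with vehicle. Of the oligodendrocyte lineage sum Mbp alone made 58.3 CPM in vehicle microglia, and it had 80.4 CPM in vehicle BMDM. The part of all these markers in the lysosomal changes was not tested.

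**Figure D2:**
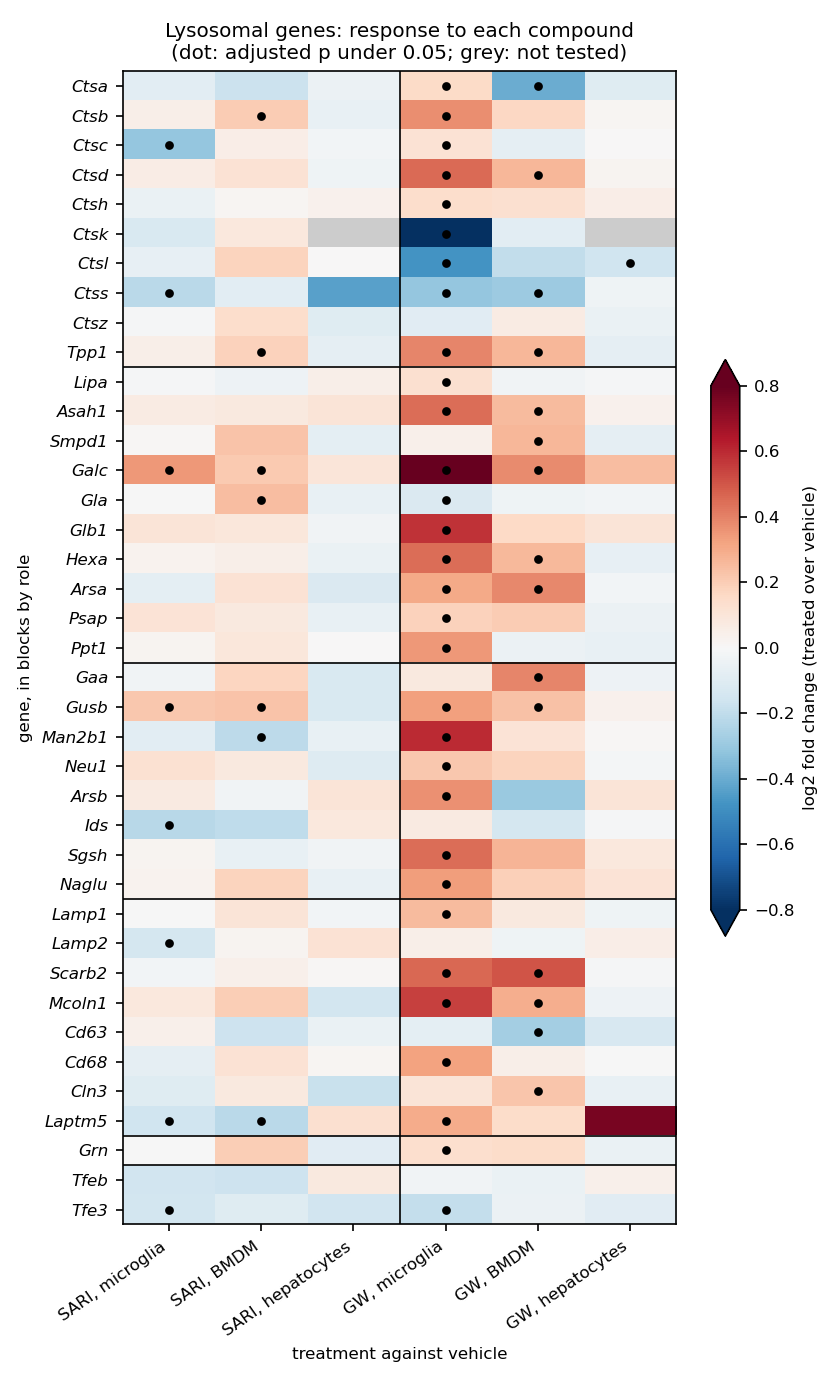
Log2 fold change of the 39 genes (rows, in blocks of proteases, lipid, glycan, membrane, progranulin and transcription factor genes) for saringosterol (SARI) and GW over vehicle in each cell type (columns, n = 3 libraries per group). Dots mark calls: 26 higher and 5 lower genes fill the column of GW in microglia, and 1 dot, for Ctsl, stands in the hepatocyte columns; the dark square without a dot is Laptm5 in hepatocytes, at 0.29 to 1.08 CPM with GW.

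Promoters of the members with a RefSeq window were searched, whether or not the gene was called, for the E-box CACGTG, bound by TFEB and TFE3 among other factors, and for its extended form TCACGTG, whose reverse complement is CACGTGA and which always holds the shorter motif. RefSeq windows of 250 bases before to 50 bases after the gene start (build GRCm38.p6) were found for 36 of the 39 genes. The E-box stood in 33.3% of the 36 genes and in 8.09% of all 27025 genes with a window. The extended form stood in 11 of the 36, or 30.6%, and in 4.29% of all genes. Counted per window, the shares were 26.2% of 42 windows and 3.77% of 32851 windows for the extended form, and 28.6% and 7.15% for the shorter one. The 11 genes were Ctsa, Ctsd, Gla, Glb1, Arsa, Gaa, Sgsh, Naglu, Lamp1, Mcoln1 and Cln3. A match is a run of letters and not a measured binding site.

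With GW in microglia, 8 of the 11 genes with the extended motif were called higher and 1 lower, with a median log2 fold change of 0.30, and 15 of the 25 matched genes without it were higher and 4 lower, with a median of 0.13. With GW in BMDM, 5 of the 11 were higher and 1 lower, and 6 of the 25 higher and 2 lower. With saringosterol in microglia, 0 of the 11 were called, and 2 of the 25 were higher and 6 lower. In BMDM saringosterol had 1 of the 11 higher, and 3 of the 25 higher and 2 lower. Hepatocytes had 0 of the 11 called with either compound, and of the 25 only 1 lower with GW. No test was made of these differences. The motifs before the start of Mcoln1, Ctsd and Ctsa are shown because these 3 motif-bearing genes had the most treatment comparisons called, 2 each, with ties taken by the largest change. Each core CACGTG is given with up to 7 bases on either side and the extended motif in capitals. Those of Mcoln1 lie at chr8:3500441-3500460 and chr8:3500467-3500486 on the plus strand, those of Ctsd at chr7:142388060-142388077 and chr7:142387913-142387932 on the minus strand and that of Ctsa at chr2:164833754-164833772 on the plus strand.
Mcoln1, upstream: cgcttgTCACGTGttcagtt
Mcoln1, downstream: ccccgcTCACGTGAccgcgg
Ctsd, upstream: tccccCACGTGAcctgta
Ctsd, downstream: cgcgtcTCACGTGAcccgtt
Ctsa: aaactgTCACGTGAtgcag
The cores began 71 and 45 bases before the RefSeq start in Mcoln1, 245 and 98 bases before it in Ctsd and 12 bases before it in Ctsa, with a further core 5 bases after the start of Ctsa. The GENCODE M21 gene spans begin further upstream than these RefSeq starts, by 62 bases in Mcoln1, 211 in Ctsd and 900 in Ctsa, so that all but the upstream Ctsd stretch overlap an exon of a longer annotated transcript. In the upstream Mcoln1 stretch only flanking bases do so, and its core lies before the start of the gene span. Lamp1 held 4 cores within 61 bases of its RefSeq start.

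Saringosterol changed fewer of the genes in microglia, with 2 higher and 6 lower, while 4.19% of all genes tested were higher and 6.66% lower. The medians were -0.004 over the 39 genes and -0.003 over all. The 39 genes had a share of TPM of 8.06, 8 and 7.64% in saringosterol-treated microglia and 7.63, 7.73 and 7.99% in vehicle microglia, overlapping groups. Galc had 114, 116 and 109 CPM in saringosterol-treated microglia and 86.1, 88.6 and 91.1 CPM in vehicle microglia, with a log2 fold change of 0.35 ± 0.04 and an adjusted p of 1e-06. Gusb had 1024, 1032 and 974 CPM with saringosterol and 847, 846 and 899 CPM with vehicle, with a log2 fold change of 0.22 ± 0.03. Both genes were also higher with GW. Without saringosterol replicate 3, or without vehicle replicate 3, the count of higher genes was 4.

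The 6 genes that fell with saringosterol in microglia were Ctsc, Ids, Ctss, Laptm5, Tfe3 and Lamp2. Ctsc had 561, 526 and 565 CPM in saringosterol-treated microglia and 658, 683 and 699 CPM in vehicle microglia, a log2 fold change of -0.31 ± 0.04 with an adjusted p of 2.7e-07. Ids had 69, 70.3 and 77.4 CPM with saringosterol and 86.4, 84.6 and 81 CPM with vehicle, and Ctss had 3912, 3787 and 3922 CPM with saringosterol and 4420, 4459 and 4530 CPM with vehicle. The treated libraries were all below the vehicle libraries. Laptm5 fell to 1965, 1905 and 1839 CPM, against 2139, 2074 and 2125 CPM with vehicle, a log2 fold change of -0.16 ± 0.03. With GW, Ctsc and Laptm5 were higher than vehicle in microglia, with log2 fold changes of 0.11 and 0.30. Saringosterol and GW were given at different doses and share the vehicle libraries, and the difference between them was not tested.

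Tfe3 had 208, 206 and 193 CPM with saringosterol and 227, 219 and 224 CPM with vehicle, a log2 fold change of -0.15 ± 0.04. Tfeb had 68.4, 69.8 and 62.7 CPM with saringosterol, below the vehicle values of 75.7, 73.3 and 73.4 CPM, and did not pass the test (log2 fold change -0.15 ± 0.06, adjusted p = 0.083). Lamp2, a structural membrane protein, fell by 0.14 on the log2 scale. In the same libraries all 17 interferon-stimulated genes were lower, with sums of 1506 to 1529 CPM in saringosterol-treated and 2485 to 2753 CPM in vehicle microglia, and of 15 macrophage markers 3 were higher and 7 lower, with sums of 39100 to 39502 CPM with saringosterol and 38302 to 40402 CPM with vehicle. Microglia markers had 4 of 8 tested lower, with sums over all 9 of 906 to 918 CPM with saringosterol and 899 to 925 CPM with vehicle. Oligodendrocyte lineage markers had 3 of 6 tested lower, with sums over all 7 of 68 to 73 CPM with saringosterol and 78.3 to 83.1 CPM with vehicle. Kupffer cell markers had 2 of 4 tested higher, with sums over all 6 of 17 to 17.8 CPM with saringosterol and 9.19 to 10.2 CPM with vehicle. Mbp made most of the oligodendrocyte lineage sum, with 58.3 CPM in vehicle microglia. The part of all these markers in the lysosomal changes was not tested.

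In BMDM, GW raised 12 of the 39 genes and lowered 3, with 5.66% higher and 4.76% lower of all genes tested and medians of 0.15 over the 39 genes and -0.01 over all. The 39 genes took 9.1, 8.82 and 9.32% of TPM in GW-treated BMDM and 8.08, 8.4 and 8.64% in vehicle BMDM. Scarb2 (chr5:92441314-92506833, minus strand) had 233, 217 and 247 CPM with GW and 156, 158 and 171 CPM with vehicle, a log2 fold change of 0.51 ± 0.06 with an adjusted p of 7.5e-06. Gaa had 186, 168 and 184 CPM with GW and 120, 141 and 145 CPM with vehicle, a log2 fold change of 0.39 ± 0.07. All GW libraries stood above all vehicle libraries for both. Arsa had 71.1, 60.9 and 68.4 CPM with GW and 51.2, 47.3 and 53.3 CPM with vehicle, and Galc had 268, 281 and 287 CPM with GW and 197, 217 and 223 CPM with vehicle.

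Mcoln1 had 76.6, 90.1 and 86.6 CPM in GW-treated BMDM and 64.7, 66.8 and 72.9 CPM in vehicle BMDM, a log2 fold change of 0.29 ± 0.07 with an adjusted p of 0.0094. That call ended without GW replicate 2, with an adjusted p of 0.069, and without vehicle replicate 2, with an adjusted p of 0.054. By role, the calls with GW in BMDM were 5 higher of 10 lipid-degrading enzymes, 2 higher of 8 glycan-degrading enzymes, 3 higher and 1 lower of 8 membrane proteins, and 2 higher and 2 lower of 10 proteases. Ctsa, the carboxypeptidase that also stabilises the sialidase and the beta-galactosidase (chr2:164832873-164841032, plus strand), had 1788, 1574 and 1705 CPM with GW and 2078, 2166 and 2368 CPM with vehicle, a log2 fold change of -0.40 ± 0.06 with an adjusted p of 0.00017. Ctss and the tetraspanin gene Cd63 fell by 0.29 and 0.27 on the log2 scale. Without a filter on low counts, 5 genes in place of 3 were lower.

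Tfeb had 146, 131 and 126 CPM in GW-treated BMDM and 127, 139 and 147 CPM in vehicle BMDM, and Tfe3 had 213, 197 and 204 CPM with GW and 195, 215 and 215 CPM with vehicle. The groups overlapped for both, and adjusted p-values were 0.74 and 0.68. Of the genes called higher with GW, 9 were shared between microglia and BMDM, which is 34.6% of the microglial and 75% of the BMDM genes: Arsa, Asah1, Ctsd, Galc, Gusb, Hexa, Mcoln1, Scarb2 and Tpp1. Over all genes tested, the 465 genes called higher in both were 21.5% of the microglial and 53.3% of the BMDM ones, and no test of the overlap was made. Ctss was lower in both. Macrophage markers summed to 28623 to 30780 CPM in GW-treated and 29462 to 31093 CPM in vehicle BMDM, with 3 of 15 lower. Neutrophil markers had 5 of 7 lower, with sums of 37.4 to 46 CPM with GW and 63.4 to 74.5 CPM with vehicle, and interferon-stimulated genes summed to 274 to 332 CPM with GW and 502 to 756 CPM with vehicle, with 1 of 17 called. Kupffer cell markers had 2 of 4 tested higher, with sums over all 6 of 445 to 474 CPM with GW and 117 to 125 CPM with vehicle. Of that vehicle sum Cd5l alone made 103 CPM on average, and Clec4f stood at 0. Liver endothelium markers had 1 of 3 tested higher, with sums of 86.1 to 88.8 CPM with GW and 29.4 to 30.9 CPM with vehicle. Stab2 made 29.2 CPM of the vehicle sum on average. Stellate cell and fibroblast markers had 1 of 4 tested lower. Mitochondrial transcripts took 0.454, 0.37 and 0.414% of counts in GW-treated BMDM and 0.625, 0.583 and 0.512% in vehicle BMDM, with no overlap. Their part in the lysosomal changes was not tested.

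**Figure D3:**
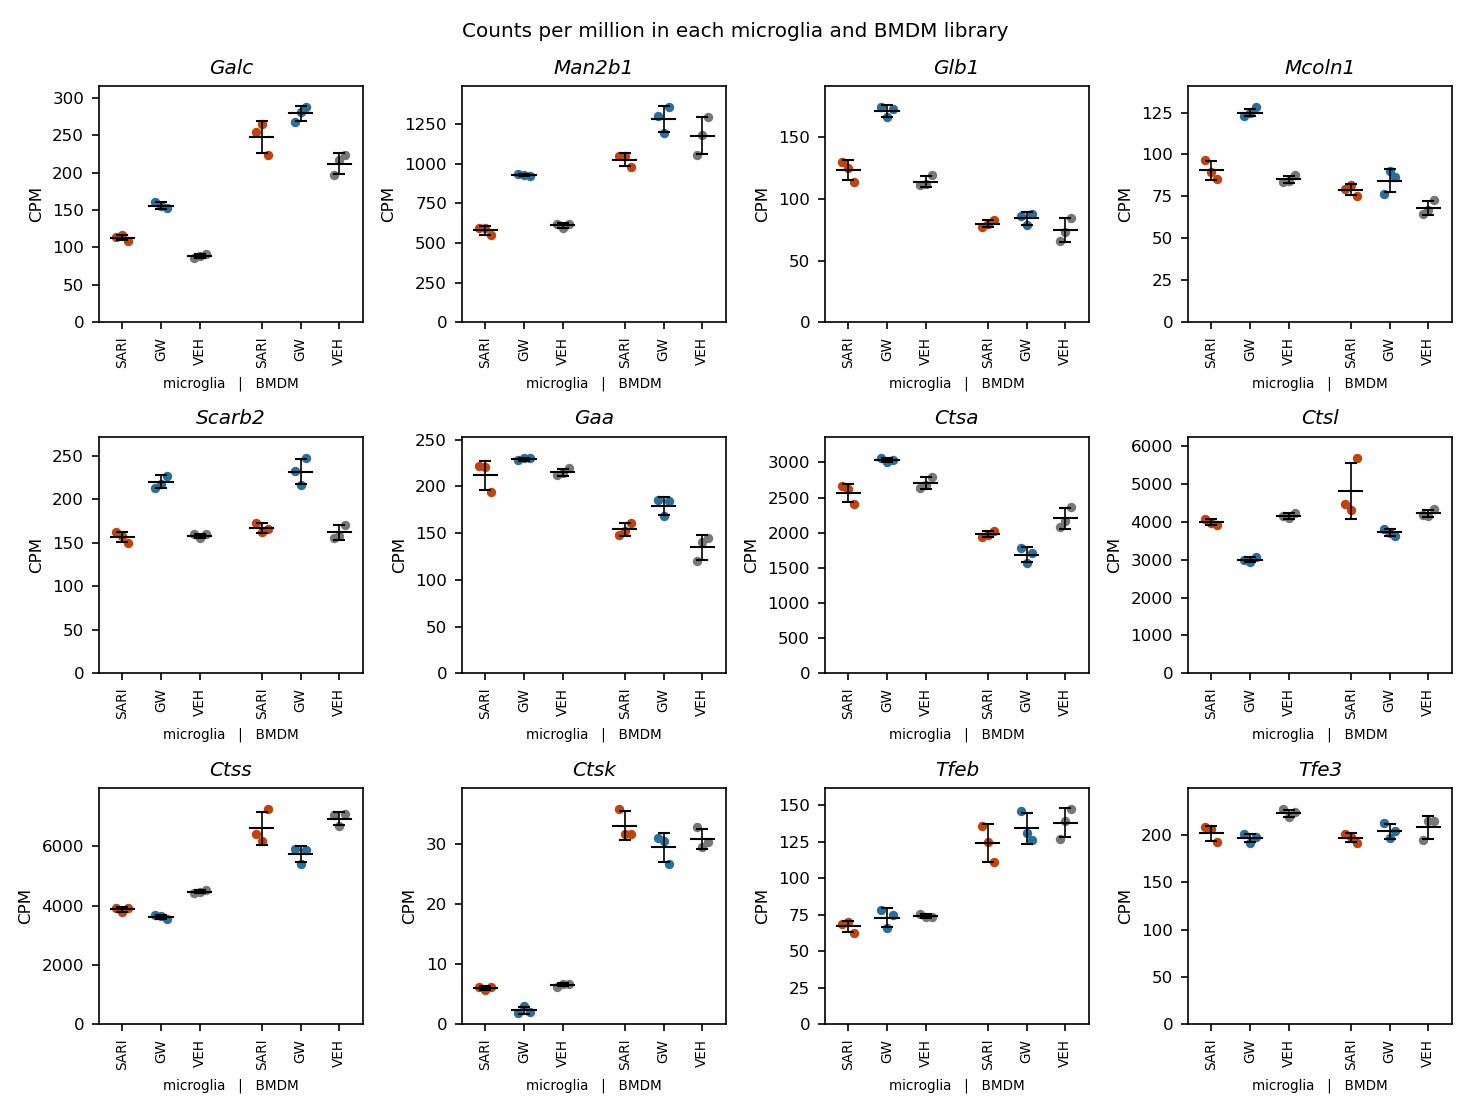
CPM of 12 genes in each microglia and BMDM library with saringosterol (SARI), GW and vehicle (VEH), with points for libraries, horizontal lines for means and bars for SD (n = 3). GW points lie above the vehicle points for Galc, Mcoln1 and Scarb2 in both cell types, and for Ctsa above them in microglia and below them in BMDM.

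Saringosterol in BMDM gave 5 higher and 2 lower genes, with 5.53% higher and 5.12% lower of all genes tested and medians of 0.08 over the 39 genes and -0.01 over all. Without a filter on low counts, 9 were higher and 4 lower. The 39 genes took 9.33, 9.27 and 9.22% of TPM in saringosterol-treated BMDM and 8.08, 8.4 and 8.64% in vehicle BMDM, and these groups did not overlap. Much of that share lay with Psap, Ctsb and Ctsd. They averaged 23014, 14187 and 14353 TPM with saringosterol and 20713, 11700 and 12568 TPM with vehicle. Psap and Ctsd were not called. Gla had 304, 286 and 326 CPM in saringosterol-treated BMDM and 248, 259 and 259 CPM in vehicle BMDM, with a log2 fold change of 0.25 ± 0.06 and an adjusted p of 0.0069. Gusb had 1470, 1461 and 1445 CPM with saringosterol and 1214, 1200 and 1284 CPM with vehicle, with a log2 fold change of 0.23 ± 0.06. The groups did not overlap for either. Galc had 254, 265 and 224 CPM with saringosterol and 197, 217 and 223 CPM with vehicle, and Ctsb had 32040, 31933 and 33000 CPM with saringosterol and 26613, 27626 and 29284 CPM with vehicle. Tpp1 was 1.13-fold higher. Galc and Gusb were the genes called higher with saringosterol in microglia as well.

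Laptm5 had 2802, 2836 and 2553 CPM in saringosterol-treated BMDM and 3009, 3101 and 3297 CPM in vehicle BMDM (adjusted p = 0.045), and Man2b1 had 1049, 1051 and 981 CPM with saringosterol and 1058, 1185 and 1294 CPM with vehicle (adjusted p = 0.049). Both calls ended with DESeq2's size factors as scaling. The count of higher genes was 3 without saringosterol replicate 2, 2 without vehicle replicate 1 and 1 without vehicle replicate 2, which left Gla. That of lower genes was 1 without saringosterol replicate 1 or vehicle replicate 1 and 0 without saringosterol replicate 2, vehicle replicate 2 or vehicle replicate 3. The call of Laptm5 ended without any 1 of the 6 libraries and that of Man2b1 without any 1 of 5 (all but vehicle replicate 1). The call of Galc ended without saringosterol replicate 1 or 2 or vehicle replicate 1 or 2, that of Ctsb without saringosterol replicate 2 or vehicle replicate 1 or 2, and that of Gusb without vehicle replicate 2. Macrophage markers had 4 of 15 lower, with sums of 22823 to 25298 CPM with saringosterol and 29462 to 31093 CPM with vehicle. Lyz2 alone averaged 21411 CPM of that vehicle sum. Kupffer cell markers had 1 of 4 tested higher, with sums over all 6 of 309 to 410 CPM with saringosterol and 117 to 125 CPM with vehicle. Microglia markers had 3 of 7 tested lower, with sums over all 9 of 262 to 322 CPM with saringosterol and 306 to 315 CPM with vehicle. Of the Kupffer cell sum Cd5l alone made 103 CPM on average in vehicle BMDM. Liver endothelium markers had 2 of 3 tested higher, with sums of 50.7 to 59.4 CPM with saringosterol and 29.4 to 30.9 CPM with vehicle. Stab2 made 29.2 CPM of that vehicle sum on average. Stellate cell and fibroblast markers had 2 of 4 tested lower and astrocyte markers 1 of 4. Mitochondrial transcripts took 0.444, 0.394 and 0.358% of counts with saringosterol and 0.625, 0.583 and 0.512% with vehicle. The part of these in the lysosomal calls was not tested.

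Ctsc, singled out after its values were seen, had 209, 234 and 753 CPM in saringosterol replicates 1 to 3 and 436, 308 and 398 CPM in vehicle BMDM, and was not called (log2 fold change 0.05 ± 0.51, adjusted p = 0.97). Without replicate 3, the library high in interferon-stimulated genes, its log2 fold change was -0.80 ± 0.16 with an adjusted p of 0.024. Ctsl had 4471, 4325 and 5679 CPM with saringosterol and 4177, 4158 and 4340 CPM with vehicle, with log2 fold changes of 0.18 with replicate 3 and 0.04 without it. Gla stayed called without replicate 3, with a log2 fold change of 0.20 and an adjusted p of 0.02, and the counts without that library were 6 higher and 2 lower, the lower genes being Ctsc and Ctsa in place of Laptm5 and Man2b1. Tfeb had 136, 125 and 111 CPM with saringosterol and 127, 139 and 147 CPM with vehicle, and Tfe3 had 201, 198 and 192 CPM with saringosterol and 195, 215 and 215 CPM with vehicle. Neither was called, with adjusted p-values of 0.19 and 0.3.

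In hepatocytes 38 of the 39 genes could be tested, since Ctsk, at 0 to 0.154 CPM, did not pass the filter on low counts. Saringosterol called 0 of them higher and 0 lower with edgeR, with 0.888% higher and 1.02% lower of all genes tested. At an unadjusted p under 0.05 the counts were 2 higher and 9 lower, and DESeq2 called 0 higher and 1 lower. Without vehicle replicate 2, edgeR called 1 higher and 2 lower. The medians were -0.05 over the tested members and 0.00 over all. Cln3, a membrane protein of neuronal ceroid lipofuscinosis, came nearest to the threshold, with a log2 fold change of -0.18 ± 0.05 and an adjusted p of 0.056. Galc, called in both phagocytes, had 6.17, 7.25 and 7.46 CPM in saringosterol-treated hepatocytes and 6.98, 6.56 and 6.41 CPM in vehicle hepatocytes, overlapping groups with an adjusted p of 0.75.

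GW in hepatocytes called 0 genes higher and 1 lower with edgeR, with 0.721% higher and 0.385% lower of all genes tested. At an unadjusted p under 0.05 there were 1 higher and 3 lower, and DESeq2 called 0 higher and 1 lower. The gene was Ctsl, with 2155, 2215 and 2226 CPM in GW-treated and 2503, 2447 and 2476 CPM in vehicle hepatocytes, a log2 fold change of -0.16 ± 0.04 with an adjusted p of 0.032. The call ended without any 1 of 5 of the 6 libraries (each GW replicate and vehicle replicates 1 and 3), with adjusted p-values of 0.051 to 0.27. Ctsl was also lower with GW in microglia. Tfeb had 10.3, 9.04 and 10.8 CPM with GW and 10.7, 9.29 and 9.61 CPM with vehicle, and Tfe3 had 108, 94.2 and 104 CPM with GW and 119, 102 and 108 CPM with vehicle. With saringosterol, Tfeb had 10, 11.6 and 9.01 CPM and Tfe3 had 94.5, 94.9 and 100 CPM, and neither gene was called with either compound.

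**Figure D4:**
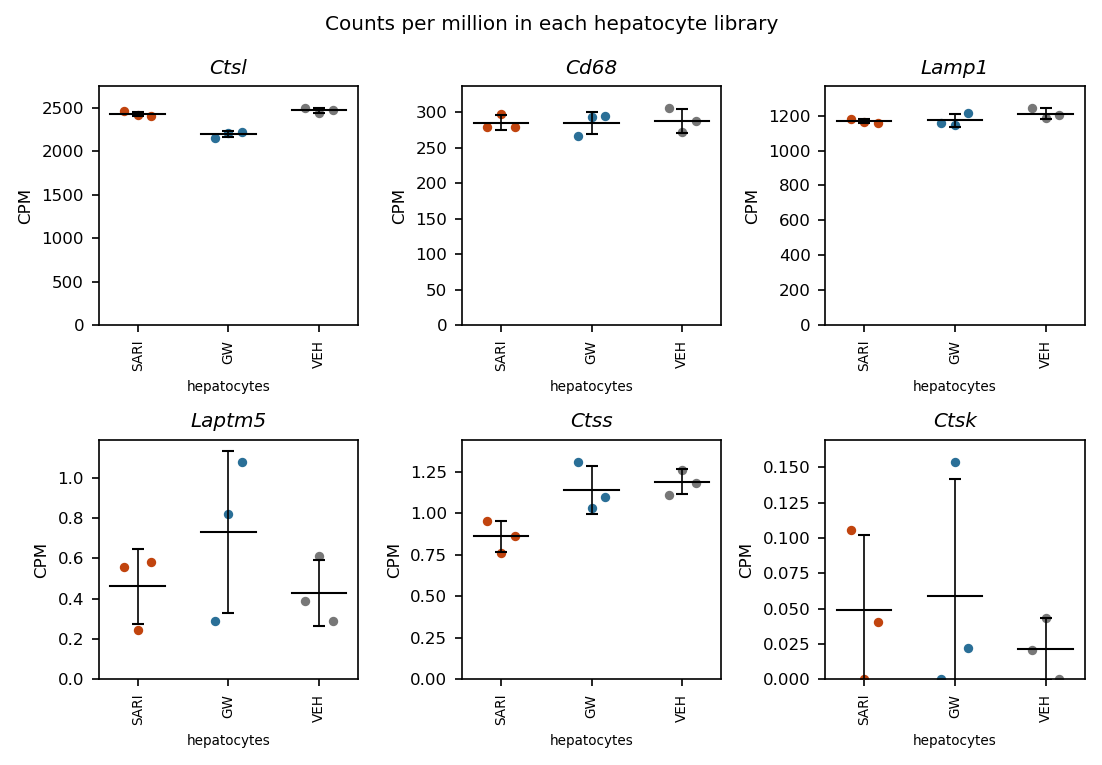
CPM of 6 genes in each hepatocyte library with saringosterol (SARI), GW and vehicle (VEH), with points for libraries, lines for means and bars for SD (n = 3), on an own axis per gene. Ctsl lies at 2155 to 2226 CPM with GW and 2447 to 2503 CPM with vehicle, Cd68 between 266 and 306 CPM in all groups, and Laptm5, Ctss and Ctsk near or below 1 CPM.

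Whether responses differed between cell types was tested as an interaction over all 27 libraries. The GW response of microglia exceeded that of BMDM in 8 of the 39 genes and lay below it in 3, with 4.43% and 5.28% of all genes tested. The 8 genes were Arsb, Ctsa, Man2b1, Galc, Glb1, Ppt1, Cd68 and Ctsb, and the 3 were Ctsk, Ctsl and Gaa. Arsb had 125, 121 and 124 CPM with GW and 95.6, 97.7 and 92.8 CPM with vehicle in microglia, and 23.1, 25.4 and 24.7 CPM with GW and 24.6, 34.7 and 29.6 CPM with vehicle in BMDM, a difference of 0.65 ± 0.11 on the log2 scale with an adjusted p of 0.00014. Ctsa rose in microglia to 3056, 3006 and 3033 CPM with GW, against 2643, 2683 and 2798 CPM with vehicle, and fell in BMDM, a difference of 0.55 ± 0.07 with an adjusted p of 4.3e-06. For Ctsk the difference was -1.44 ± 0.22, its BMDM libraries having 31.1, 30.6 and 26.7 CPM with GW and 32.8, 29.6 and 30.3 CPM with vehicle.

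**Figure D5:**
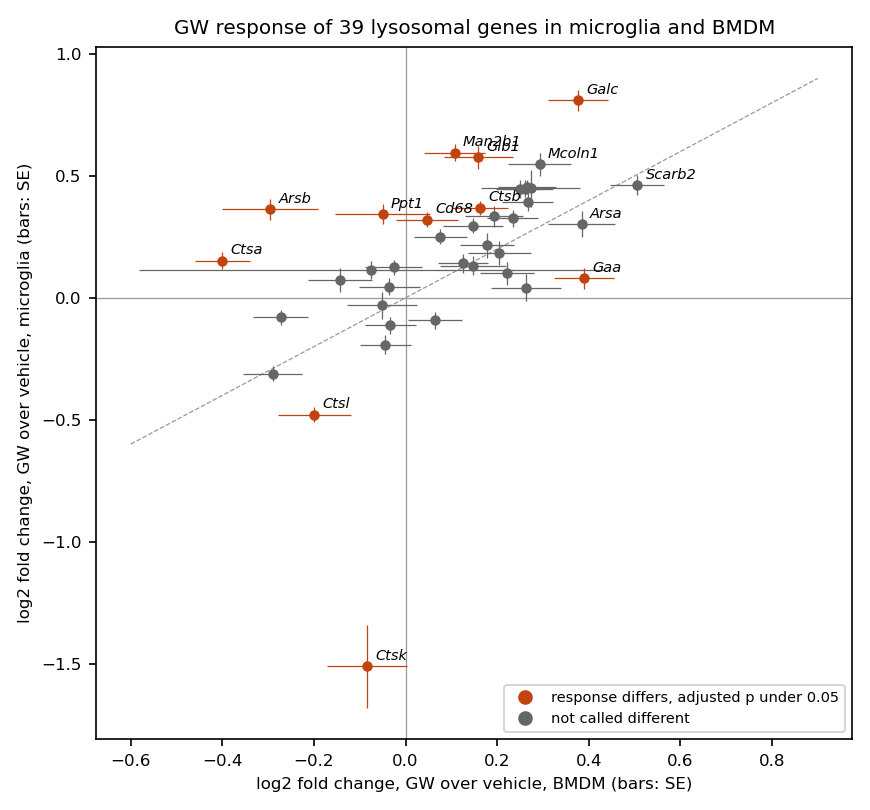
GW response of each gene in microglia (vertical axis) and BMDM (horizontal axis), as log2 fold change over vehicle with SE, with equal responses on the dashed line. The 11 rust-coloured genes differed between the cell types, from Arsb and Ctsa at upper left to Ctsk at the bottom.

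The GW response of hepatocytes lay below that of microglia in 18 of the 39 genes and above it in 1, Ctsl, with 5.05% and 3.64% of all genes tested. The largest differences were -0.61 ± 0.08 for Man2b1, -0.61 ± 0.08 for Mcoln1 and -0.59 ± 0.10 for Galc. Man2b1 had 66.7, 67.1 and 72 CPM with GW and 69.7, 68.3 and 68.5 CPM with vehicle in hepatocytes, and Mcoln1 had 102, 102 and 106 CPM with GW and 107, 103 and 111 CPM with vehicle there. Groups that had not overlapped in microglia overlapped in hepatocytes for both. Galc had 7.56, 8.68 and 7.3 CPM with GW and 6.98, 6.56 and 6.41 CPM with vehicle in hepatocytes. Its GW libraries there all lay above its vehicle libraries, though it was not called. Against BMDM, the GW response of hepatocytes was lower in 12 genes and higher in 1, Ctsa, with 3.14% and 1.6% of all genes tested, led by -0.55 ± 0.07 for Scarb2, -0.46 ± 0.09 for Gaa and -0.43 ± 0.09 for Arsa. Scarb2 had 190, 197 and 205 CPM with GW and 203, 198 and 201 CPM with vehicle in hepatocytes, Gaa had 185, 163 and 193 CPM with GW and 200, 174 and 188 CPM with vehicle, and Arsa had 142, 141 and 151 CPM with GW and 154, 143 and 146 CPM with vehicle. The hepatocyte groups overlapped for all 3. The single higher call ended without BMDM GW replicate 2, hepatocyte GW replicate 3, BMDM vehicle replicate 3, or hepatocyte vehicle replicates 2 or 3, each leaving 0, and became 2 without hepatocyte GW replicate 1, BMDM vehicle replicate 1 or hepatocyte vehicle replicate 1. Against microglia it became 2 without hepatocyte GW replicate 1.

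For saringosterol, 1 gene, Gla, responded less in microglia than in BMDM and 0 responded more, with 1.24% and 0.769% of all genes tested, 1 gene higher at an unadjusted p under 0.05 and 0 higher with DESeq2. Gla had 372, 368 and 362 CPM in saringosterol-treated and 353, 368 and 376 CPM in vehicle microglia, and its difference between the responses was -0.25 ± 0.06 with an adjusted p of 0.024. That call ended without a filter on low counts, with an adjusted p of 0.069, and without BMDM saringosterol replicate 3, microglial saringosterol replicates 2 or 3, BMDM vehicle replicates 1 or 2, or microglial vehicle replicate 3, with adjusted p-values of 0.051 to 0.089. The count of genes below became 2 without BMDM saringosterol replicate 1 or 2 or BMDM vehicle replicate 3, and that of genes above became 1 without BMDM saringosterol replicate 1 or 3.

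Gusb was the gene whose saringosterol response lay lower in hepatocytes than in microglia, by 0.38 ± 0.07 on the log2 scale with an adjusted p of 0.0015. It had 109, 101 and 105 CPM in saringosterol-treated and 119, 113 and 118 CPM in vehicle hepatocytes. Over all genes tested 0.906% were lower and 0.274% higher in this comparison, and among the 39 genes 0 were higher, with 2 higher at an unadjusted p under 0.05 and 0 higher with DESeq2. Without microglial saringosterol replicate 3 or microglial vehicle replicate 3, 2 genes were lower. Against BMDM, the hepatocyte response to saringosterol was lower in 12 of the 39 genes and higher in 0, with 6.98% and 3.13% of all genes tested, 1 higher at an unadjusted p under 0.05 and 0 higher with DESeq2. Without BMDM saringosterol replicate 3, or without BMDM vehicle replicate 1, 1 gene was higher.

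The largest of these 12 differences from BMDM were -0.40 ± 0.07 for Gusb, -0.39 ± 0.09 for Mcoln1 and -0.35 ± 0.09 for Smpd1. Mcoln1 had 92.1, 90.8 and 101 CPM in saringosterol-treated and 107, 103 and 111 CPM in vehicle hepatocytes, and 79.5, 82 and 75.4 CPM in saringosterol-treated and 64.7, 66.8 and 72.9 CPM in vehicle BMDM. Smpd1 had 92.7, 91.4 and 96.4 CPM in saringosterol-treated and 106, 93.7 and 102 CPM in vehicle hepatocytes, and 45.8, 48 and 51.6 CPM in saringosterol-treated and 38.6, 41.8 and 42.7 CPM in vehicle BMDM. Neither gene was called within hepatocytes or within BMDM, with adjusted p-values of 0.065 to 0.46. The 3 cell types' comparisons share their libraries, so the counts of these interactions are not separate evidence.

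Other genes of the pathway were counted in lists, each described by calls only. With GW in microglia, 14 of 28 other lysosomal hydrolases and activators were higher and 2 lower, among them Pla2g15, the lysosomal phospholipase, at 560 ± 2.95 CPM with GW and 306 ± 6.34 CPM with vehicle (SD, n = 3), and Acp5, the tartrate-resistant acid phosphatase, at 21.2 ± 0.849 CPM with GW and 34.7 ± 2 CPM with vehicle. Of 18 subunits of the proton pump that acidifies lysosomes 7 were higher and 3 lower, with Atp6v0a1 at 2058 ± 64.5 CPM with GW and 1377 ± 13.4 CPM with vehicle and Atp6v1g1 at 376 ± 10.2 CPM with GW and 292 ± 13.1 CPM with vehicle. Of 15 sorting genes 5 were higher and 1 lower: the sorting receptor gene Sort1 had 167 ± 9.95 CPM with GW and 79.4 ± 3.63 CPM with vehicle, a log2 fold change of 1.06, and Igf2r, the mannose 6-phosphate receptor, had 25.7 ± 3.46 CPM with GW and 17.6 ± 1.24 CPM with vehicle.

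Of 17 genes of nutrient sensing at the lysosome 6 were higher and 1 lower with GW in microglia, including Slc38a9 and Rragc, with log2 fold changes of 0.27 and 0.24. Autophagy genes had 2 of 18 higher and 3 lower, with the cargo receptor gene Sqstm1 at 1178 ± 25.7 CPM with GW and 1946 ± 61.4 CPM with vehicle and Atg7 at a log2 fold change of -0.24. Of 6 cathepsin inhibitor genes 2 were higher and 2 lower, with Cst7, cystatin F, at 34.1 ± 1.5 CPM with GW and 61 ± 2.1 CPM with vehicle and Serpinb6a at 300 ± 7.44 CPM with GW and 213 ± 3.99 CPM with vehicle. Over all genes, 13.4% were higher and 15.2% lower, as above.

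With saringosterol in microglia, 6 of 18 proton pump subunits were higher, led by Atp6v1b2 at 2022 ± 74.3 CPM with saringosterol and 1717 ± 20.2 CPM with vehicle and by Atp6v1d, with a log2 fold change of 0.19. Other hydrolases had 2 of 28 higher and 5 lower, among them Npc2, the sterol-binding protein of the lysosome, at 829 ± 20.5 CPM with saringosterol and 942 ± 27.8 CPM with vehicle, and Idua at -0.17 on the log2 scale. Of the sorting genes 3 of 15 were higher, including Igf2r at 0.30 and Gnptab at 0.19, and of the nutrient sensing genes 3 of 17, including the Rag GTPase gene Rragd at 53.8 ± 0.608 CPM with saringosterol and 39.8 ± 0.343 CPM with vehicle, and Lamtor3 at 0.18. Autophagy genes had 3 of 18 lower, among them Atg9a at -0.25 and Sqstm1 at -0.17, and Serpinb6a, 1 of 6 inhibitors, was higher by 0.27. Over all genes, 4.19% were higher and 6.66% lower.

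In BMDM, saringosterol raised 5 of 18 proton pump subunits, among them Atp6v0d2, at 2171 ± 135 CPM with saringosterol and 1784 ± 60.3 CPM with vehicle, and Atp6v1a. It raised 6 of 17 nutrient sensing genes and lowered 1, with Rragd at 58.3 ± 2.69 CPM with saringosterol and 41.8 ± 0.941 CPM with vehicle, and Lamtor3 at a log2 fold change of 0.38. Of 27 other hydrolases tested 2 were higher and 4 lower, with the legumain gene Lgmn at 1909 ± 180 CPM with saringosterol and 1362 ± 32.3 CPM with vehicle and Gm2a, the GM2 activator, at 775 ± 72.1 CPM with saringosterol and 996 ± 50.1 CPM with vehicle. Sorting genes had 5 of 15 higher and 1 lower, with Gnptab at 0.36 and Cln6 at -0.32, autophagy genes 3 of 18 higher, with Vps18 at 0.32 and Optn at 0.28, and Serpinb6a was higher by 0.38. The shares of all genes were 5.53% higher and 5.12% lower.

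GW in BMDM raised 5 of 27 other hydrolases tested and lowered 1, with Lgmn at 2040 ± 13.7 CPM with GW and 1362 ± 32.3 CPM with vehicle and Cpq, a carboxypeptidase, at 104 ± 4.42 CPM with GW and 72.5 ± 3.8 CPM with vehicle. It raised 5 of 17 nutrient sensing genes, including Rragd at 58 ± 4.81 CPM with GW and 41.8 ± 0.941 CPM with vehicle, and Slc38a9 at 0.36 on the log2 scale. Autophagy genes had 5 of 18 higher and 1 lower, including Optn and Ulk1, a starter kinase of autophagy, at 0.32 and 0.31. Tcirg1, 1 of 18 pump subunits, was higher by 0.33, Igf2r, 1 of 15 sorting genes, by 0.28, and among 5 inhibitors tested Serpinb6a was higher by 0.41 and Cstb, cystatin B, lower by 0.19. All genes tested had 5.66% higher and 4.76% lower.

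In hepatocytes 0.888% of all genes tested were higher and 1.02% lower with saringosterol, and 0.721% higher and 0.385% lower with GW. Saringosterol lowered Idua, at 7.22 ± 0.741 CPM with saringosterol and 9.91 ± 0.792 CPM with vehicle (1 of 28 other hydrolases), Tcirg1 and Atp6v0a1, at log2 fold changes of -0.21 and -0.20 (2 of 17 pump subunits tested), Lamtor1 at -0.19 (1 of 16 nutrient sensing genes tested) and Atg9a and Vps11 at -0.26 and -0.19 (2 of 18 autophagy genes). GW raised Cln8, an exit factor for lysosomal enzymes from the endoplasmic reticulum, at 72.3 ± 2.5 CPM with GW and 62.7 ± 3.69 CPM with vehicle (1 of 15 sorting genes).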

How the data were processed

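Per the labels' protocols, RNA was primed with oligo-dT (SMARTer Ultra Low kit). Per the submitters' processing notes, reads were handled with bcl2fastq, STAR 2.5.1a and featureCounts 1.4.6-p5 on GRCm38; annotation release and strand setting were not found in the labels or headers, so 18 of the 39 genes, which overlap another annotated gene (Ctsa, Ctsb, Ctsc, Ctsd, Ctsl, Ctss, Galc, Glb1, Arsa, Arsb, Hexa, Ppt1, Sgsh, Lamp1, Ctsz, Grn, Scarb2 and Cln3), are uncertain to that extent. The authors deposited whole read counts and TPM values per gene. Of 55774 lines, repeats of 168 identifiers were dropped. Gene spans of all 39 genes equalled GENCODE M21.

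Counts were tested with edgeR 4.0.16 (R 4.3.3; filterByExpr, TMM, robust quasi-likelihood F test, Benjamini-Hochberg over all genes tested, called under 0.05) on the 9 libraries of a cell type, the 9 vehicle libraries, or all 27 for interactions. Genes tested numbered 16065 in microglia, 15416 in BMDM, 16098 in hepatocytes, 17466 in vehicle cells and 18979 over all. Printed CPM use TMM-scaled library sizes over 27 libraries, and marker sums plain totals. A count of 0 allows 3 counts, or 0.0731 to 0.099 CPM, for counting error only, since reads without molecular identifiers are not independent. The fitting code was tested on simulated data. DESeq2 1.42.0, other scaling, no filter, a replicate block and leaving out each library were the alternatives. Deviations of same-numbered libraries correlated weakly (-0.12 to 0.085), so numbers were not used as pairs. Whether the libraries were paired was not settled by these values.

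The genes and lists were chosen with earlier results of these data known, and no list was tested as a set. Values per library are given for up to 6 called genes per treatment comparison and up to 4 per direction per vehicle comparison, the largest changes first, for up to 3 per interaction, and for Tfeb and Tfe3; the 3 highest and lowest levels per cell type and up to 2 called genes per pathway list are named. Promoter sequences are those of RefSeq (GRCm38.p6).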

Additional observations from a re-analysis of the deposited data

Results flagged for a closer look

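The following differences between cell types passed the interaction test, and each is the first response minus the second on the log2 scale. For GW in microglia minus BMDM they were -1.44 for Ctsk, 0.65 for Arsb and 0.55 for Ctsa. For GW in hepatocytes minus microglia they were -0.61 for Man2b1, -0.61 for Mcoln1 and -0.59 for Galc, and in hepatocytes minus BMDM -0.55 for Scarb2, -0.46 for Gaa and -0.43 for Arsa. For saringosterol they were -0.25 for Gla in microglia minus BMDM, -0.38 for Gusb in hepatocytes minus microglia, and -0.40 for Gusb, -0.39 for Mcoln1 and -0.35 for Smpd1 in hepatocytes minus BMDM. With GW, Ctsa rose in microglia and fell in BMDM.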

How the results depend on the processing

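Of 63 results for single genes, 55 stayed called under every alternative run, and none of their values reversed; 37 values lost their call. Of 30 counts of the 39 genes, 16 stayed within 1.5 times of the reported count. With no filter on low counts, saringosterol in BMDM called 9 higher and 4 lower, GW in BMDM 5 lower, and GW in hepatocytes minus BMDM 2 higher. DESeq2's size factors gave 0 lower for saringosterol in BMDM. DESeq2's own test gave 1 lower for saringosterol in hepatocytes, 3 lower for saringosterol in microglia minus BMDM, and 2 higher for GW in hepatocytes minus microglia and minus BMDM. Plain library totals gave 7 higher for vehicle hepatocytes against microglia.

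Numbers were not used as pairs in the reported fits. The replicate block gave 0 lower for saringosterol in BMDM and 3 lower for saringosterol in hepatocytes. Over all genes, saringosterol in hepatocytes then had 387 higher and 395 lower, beside 143 and 164 without the block. In 3 comparisons (GW in microglia, GW in hepatocytes, and vehicle microglia against BMDM) each library correlated best with its own number.

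Leaving out 1 library at a time gave these ranges. Saringosterol had 2 to 4 higher in microglia, 1 to 6 higher and 0 to 2 lower in BMDM, and 0 to 1 higher and 0 to 2 lower in hepatocytes. GW had 0 to 1 lower in hepatocytes. Interaction counts were 0 to 1 higher and 0 to 2 lower for saringosterol in microglia minus BMDM, 1 to 2 lower in hepatocytes minus microglia and 0 to 1 higher in hepatocytes minus BMDM, and for GW 1 to 2 higher in hepatocytes minus microglia and 0 to 2 higher in hepatocytes minus BMDM. Depth limits the genes near 1 CPM, such as Laptm5 and Ctss in hepatocytes.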

Other observations

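Cd68 and Laptm5, both membrane proteins of lysosomes, differed in how far hepatocytes lay below microglia. Cd68 had 288 ± 16.9 CPM in vehicle hepatocytes and 2049 ± 43.3 CPM in vehicle microglia, a log2 fold change of -2.84, and Laptm5 had 0.43 ± 0.164 CPM in vehicle hepatocytes and 2113 ± 34.2 CPM in vehicle microglia, a log2 fold change of -12.26 (SD, n = 3). The macrophage genes Tyrobp, Ptprc and Spi1 had 0.209, 0.295 and 0.215 CPM in vehicle hepatocytes. The pair was picked after its values were seen, and the difference between the genes was not tested.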
